A study of Mus musculus with 4 samples.

Results

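The solute carriers (SLC) are a large group of membrane transporters that do not hydrolyse ATP. The transporters described here were all probe sets with 1 annotated gene whose symbol begins with Slc or Slco, apart from the glucose (Slc2a), bile acid (Slc10a), mitochondrial (Slc25a), fatty acid (Slc27a) and zinc (Slc30a and Slc39a) carrier families and the genes Slc22a5 and Slc37a4. A probe set was kept when it read 64 units or more on at least 1 array, a level well above the array median of about 14 units. This gave 69 probe sets of 48 genes, out of 323 probe sets of 203 such genes on the array and out of 22626 probe sets in all. The remaining 254 probe sets stayed below 64 units on every array, which left 155 genes without a value here. Slc66a1 (68.8 units) and Slc4a4 (69.3 units, the dimmest of its 3 probe sets) were just inside the level, and Slc46a3 (61.1 units) and Slc1a4 (58.8 units) just outside it.

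Hepatocytes take up amino acids, bile pigments, drugs, vitamins, metals and phosphate from the blood through carriers of the sinusoidal membrane, and they release ketone bodies, glucose and iron through others. Many of these carriers are coupled to the sodium or proton gradient, so that the direction of transport follows the gradient of the solute and of the ion. Further members lie in the endoplasmic reticulum, the Golgi apparatus, lysosomes and mitochondria, where they supply nucleotide sugars, acetyl-CoA or calcium. In fasting the liver draws on circulating amino acids and lactate for gluconeogenesis and exports ketone bodies. PPARα, a fatty acid sensor of the nuclear receptor family that binds DNA together with RXR, controls much of hepatic fatty acid oxidation and ketogenesis.

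Total liver RNA was measured in 4 groups of male mice aged 12 to 20 weeks. PPARα-null mice of the strain 129S4/SvJae and wild-type mice, given as 129S1/SvImJ in the design text and as 129Sv in the sample labels, were either fasted for 24 hours or fed and killed when the dark period ended. RNA of 5 mice per group according to the design text was combined into 1 pool, and each pool was read on 1 Affymetrix MOE430A array. The null mice carry the gene disruption in every tissue, so the arrays do not separate an effect in hepatocytes from one of other organs, and genotype and substrain cannot be told apart. With 1 array per group there is no replicate check on any difference, no p-value was computed, and a difference was counted when it reached 1.5-fold, the threshold of the study's methods for pooled arrays.

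The Ppara probe set read 16.3 units in fasted null, 755 units in fasted wild-type, 104 units in fed null and 583 units in fed wild-type liver, in the direction of the labels. The null pools differed from each other, the fed null pool being 6.38-fold above the fasted null pool, and the cause was not tested. All 9 hepatocyte markers on the array were at 64 units or more, with summed levels between 95449 and 118063 units. Of the markers of other liver cells, 7 of 11 Kupffer cell and macrophage genes reached 64 units on some array. Of these 7, 6 were higher in the fasted null than in the fasted wild-type pool and 0 lower. Of all 6032 probe sets past the same level, 11.7% were higher and 18.9% lower. The Kupffer cell list summed to 1191 units in fasted null, 584 units in fasted wild-type, 1019 units in fed null and 985 units in fed wild-type liver. Cd68 was below 16 units throughout. The 7 endothelial genes summed to 744, 415, 304 and 335 units in the same order of groups (Pecam1 and Vwf below 16 units), most of it Stab2 at 637, 314, 203 and 249.8 units, while Stab1 had a log2 difference of -0.61 between the fasted genotypes. The 6 stellate cell and fibroblast genes summed to 119, 84.0, 262 and 126 units (Col1a1, Des and Lrat below 16 units), and the 3 erythroid genes on the array to 438, 213, 767 and 484 units (Hba-a1 and Epb42 below 16 units). The 5 cholangiocyte genes on the array were below 64 units on all arrays. The exocrine pancreas list summed to 153 and 148 units in the fasted pools (null and wild-type) and to 947 and 669.7 units in the fed pools, most of it Cela1. The part of these cells in the transporter values was not tested, and in bulk RNA fewer cells of a type and less RNA per cell cannot be told apart.

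The 4 arrays were first compared over all transporter probe sets. In fasted null against fasted wild-type liver 15 of the 69 were 1.5-fold or more higher and 19 lower, or 21.7% and 27.5%, where 11.7% and 18.9% of all 6032 probe sets past the same level were higher and lower. The median log2 difference was -0.04, against -0.05 for all 6032. In the fed state 4 were higher and 4 lower in null liver (5.8% and 5.8%, against 3.18% and 3.1% of all probe sets). Fasting of wild-type mice gave 12 higher and 20 lower (17.4% and 29%, against 12.9% and 12%), with a median of -0.16 against 0.02. Fasting of null mice gave 14 higher and 29 lower (20.3% and 42%, against 17.2% and 23.5%), with a median of -0.42 against -0.04. These counts describe the members that passed the level and are no test. The comparisons that share an array are not independent of each other.

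**Figure D1:**
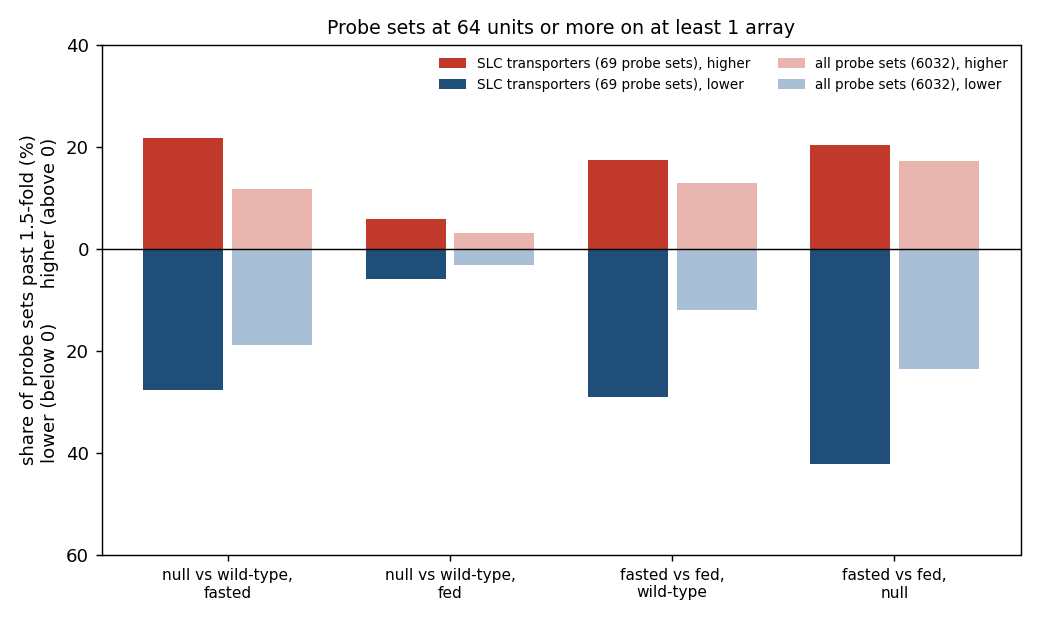
Share of probe sets (%, vertical axis) that were 1.5-fold or more higher (above 0) or lower (below 0) in each of the 4 comparisons, for the 69 SLC transporter probe sets (dark bars) and for all 6032 probe sets at 64 units or more on at least 1 array (pale bars). In fasting null liver 42% of the transporter probe sets were lower, against 23.5% of all, and in the fed comparison of genotypes the shares were 5.8% in each direction.

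The balance of higher and lower members in the fasted comparison of genotypes depended on the scaling of the arrays. The higher members made up 44.1% of those past the threshold as deposited (15 higher and 19 lower). They made up 54.8% after quantile normalization (17 and 14) and 57.6% when each array was centred on its bright probe sets (19 and 14), while lowess gave 16 and 17. All 6032 probe sets moved the same way, with the higher ones making up 38.2% of those past the threshold as deposited, 45.7% after quantile normalization and 52.9% with centring. Centring moved every log2 difference by 0.15 in the fasted comparison of genotypes and by 0.13 for fasting in null liver. For fasting in null liver the higher members made up 42.9% with centring (18 higher and 24 lower) and 32.6% as deposited (14 and 29), against 51.8% and 42.3% over all probe sets. For the difference of the fasting responses between genotypes, null minus wild-type, 17 members were 1.5-fold or more higher and 18 lower (24.6% and 26.1%, against 11.7% and 19.4% of all probe sets), and centring gave 19 and 12. The higher ones then made up 61.3% of the members past the threshold, against 48.6% as deposited, and 53.6% of all such probe sets, against 37.7% as deposited. Changes of named genes are given as deposited, and a change of scaling matters for those close to the threshold.

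**Figure D2:**
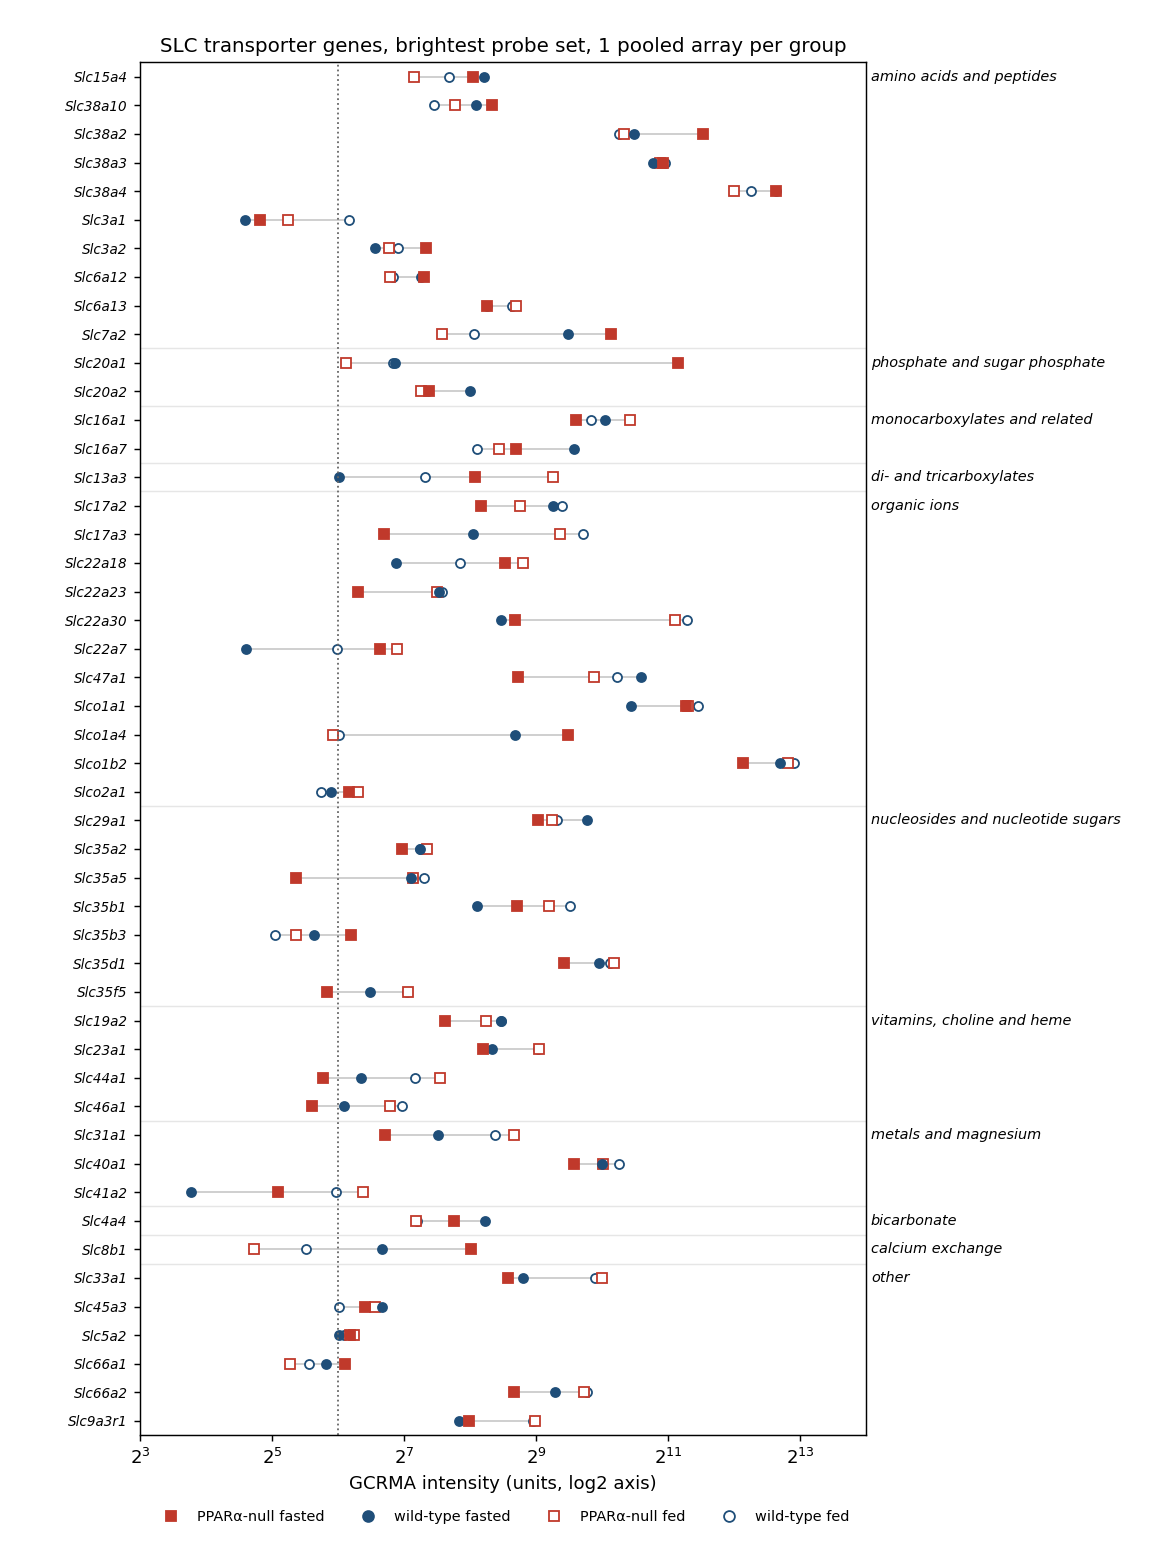
GCRMA intensity (units, log2 axis) of the 48 SLC transporter genes, 1 row per gene, grouped by substrate, with the brightest probe set of each gene and 1 point per pooled array (squares for PPARα-null, circles for wild-type, filled for fasted, open for fed). The dotted line is the level of 64 units. Slc20a1 at 2269 units in fasted null liver lies far from the other 3 pools, whereas the 4 points of Slc38a3 lie between 1759 and 1985 units.

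Phosphate transporters held the largest difference of the set, in Slc20a1, between the fasted pools and between the null pools. Slc20a1 encodes a sodium-dependent phosphate importer found in most tissues. Its brighter probe set read 2269 units in fasted null, 116 units in fasted wild-type, 69.4 units in fed null and 114 units in fed wild-type liver. The fasted null pool alone stood out, and the other 3 pools lay between 69.4 and 116 units. Slc20a1 was 19.5-fold higher in the fasted null than in the fasted wild-type pool and 32.7-fold higher in fasted than in fed null liver, while in wild-type liver the fasted and fed pools differed by 1.03-fold. In the fed state it was 1.64-fold lower in null liver. A dimmer probe set of the gene read 594 units in fasted null, 17.1 units in fasted wild-type, 13.4 units in fed null and 18.2 units in fed wild-type liver. This second probe set was 34.7-fold higher in the fasted null than in the fasted wild-type pool, and its fed null value was below the floor of 16 units, so the fasted null pool was at least 37.1-fold higher than the fed null pool. It passed the level of 64 units only through the fasted null array. For the fed comparison of genotypes the dimmer probe set stayed below the threshold at a log2 difference of -0.44.

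Slc20a2, the other importer of this family, did not share this pattern. It read 166 units in fasted null, 257 units in fasted wild-type, 153 units in fed null and 164 units in fed wild-type liver. The fasted wild-type pool was the highest, 1.57-fold above the fed wild-type pool, and the fasted null pool was 1.54-fold lower than the fasted wild-type pool, a difference that fell under the threshold after quantile normalization and with centring. No probe set of the type II phosphate family (Slc34a) or of the sugar phosphate carrier genes Slc37a1, Slc37a2 and Slc37a3 reached the level, while Slc37a4 was outside the rule.

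The promoter windows of Slc20a1 are shown because this gene carries the largest difference. RefSeq (GRCm38.p6) gives 2 start sites on the plus strand, and each window runs 5′ to 3′ over 300 bases, with 250 bases before the start. Letters in capitals match a searched motif on either strand: AGGTCA, the core hexamer of nuclear receptor sites; TGACG, the core of the cyclic AMP response element; and CACGTG, the E-box.
Slc20a1 upstream start, chr2:129198523-129198822: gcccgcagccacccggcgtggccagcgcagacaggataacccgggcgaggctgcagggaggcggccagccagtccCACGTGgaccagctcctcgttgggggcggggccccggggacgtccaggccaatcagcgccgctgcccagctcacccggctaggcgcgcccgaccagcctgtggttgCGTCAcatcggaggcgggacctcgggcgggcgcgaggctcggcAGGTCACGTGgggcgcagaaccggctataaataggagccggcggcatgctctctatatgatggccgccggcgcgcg
Slc20a1 downstream start, chr2:129206846-129207145: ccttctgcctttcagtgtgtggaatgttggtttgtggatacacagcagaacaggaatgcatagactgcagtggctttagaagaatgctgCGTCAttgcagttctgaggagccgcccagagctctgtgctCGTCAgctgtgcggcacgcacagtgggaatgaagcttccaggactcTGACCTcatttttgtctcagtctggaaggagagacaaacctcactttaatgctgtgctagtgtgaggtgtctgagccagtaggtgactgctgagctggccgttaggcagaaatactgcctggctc
The upstream window holds CACGTG at 2 positions, and the copy next to the start overlaps an AGGTCA match by 2 bases. It also holds 1 match to TGACG, read on the minus strand. The downstream window holds 2 such matches to TGACG and 1 match to AGGTCA, all on the minus strand. Of all 32851 windows, 7.15% hold CACGTG, 16.3% AGGTCA and 20.8% TGACG. The direct repeat of 2 AGGTCA hexamers with 1 base between them, the PPAR response element in its strict form, was in 0.0396% of all windows and in 0 of the 58 windows of the transporter genes, which covered 37 of the 48 genes. Among these 58 windows 7 held CACGTG (12.1%), 12 AGGTCA (20.7%) and 15 TGACG (25.9%). Full cyclic AMP elements (TGACGTCA) were in 0 of them and FoxO sites (TGTTTAC) in 0, against 1.79% and 3.65% of all windows, while AP-1 sites (TGANTCA) were in 4 (6.9%, against 7.81%). A match is a description of the letters and not a site of binding, and no match says only that the letters are not in the window.

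Both monocarboxylate carriers had a lower fasting response in null than in wild-type liver. Slc16a1 encodes the proton-coupled carrier of lactate, pyruvate and ketone bodies. It read 780.5 units in fasted null, 1055 units in fasted wild-type, 1367 units in fed null and 913 units in fed wild-type liver. The order of the null pools was the reverse of that of the wild-type pools, with the fed null pool highest and the fasted null pool lowest. It was 1.75-fold lower in fasted than in fed null liver, while the log2 difference of 0.21 in wild-type liver was below the threshold, so the 2 fasting responses were 2.02-fold apart. In fed null liver the log2 difference from fed wild-type liver was 0.58, just under the threshold of 0.585 and just over it after quantile normalization or removal of a trend with intensity. Slc16a7 encodes a carrier of high affinity for pyruvate and lactate. It read 415 units in fasted null, 763 units in fasted wild-type, 345 units in fed null and 274 units in fed wild-type liver. Here the fasted wild-type pool stood apart, 2.78-fold above the fed wild-type pool, and the fasted null pool was 1.84-fold lower than it. In null liver fasted and fed pools differed by 1.20-fold. The fasting response in null minus that in wild-type liver was -1.02 for Slc16a1 and -1.21 for Slc16a7 on the log2 scale. Bsg, which encodes the chaperone basigin that brings Slc16a1 to the plasma membrane, read 1208 units in fasted null, 1134 units in fasted wild-type, 1476 units in fed null and 1222 units in fed wild-type liver, a range that stayed within the 1.5-fold threshold.

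Slc16a1 has 1 RefSeq window on the plus strand, shown since the order of the fed and fasted pools of this gene was reversed between the genotypes. It holds CACGTG once, in capitals, and no other motif of those searched.
Slc16a1, chr3:104638414-104638713: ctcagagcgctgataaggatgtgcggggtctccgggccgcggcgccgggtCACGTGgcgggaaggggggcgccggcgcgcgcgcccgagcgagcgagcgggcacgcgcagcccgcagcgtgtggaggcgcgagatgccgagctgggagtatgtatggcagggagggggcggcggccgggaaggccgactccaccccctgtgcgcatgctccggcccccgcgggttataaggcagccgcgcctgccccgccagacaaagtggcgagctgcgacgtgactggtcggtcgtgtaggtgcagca

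**Figure D3:**
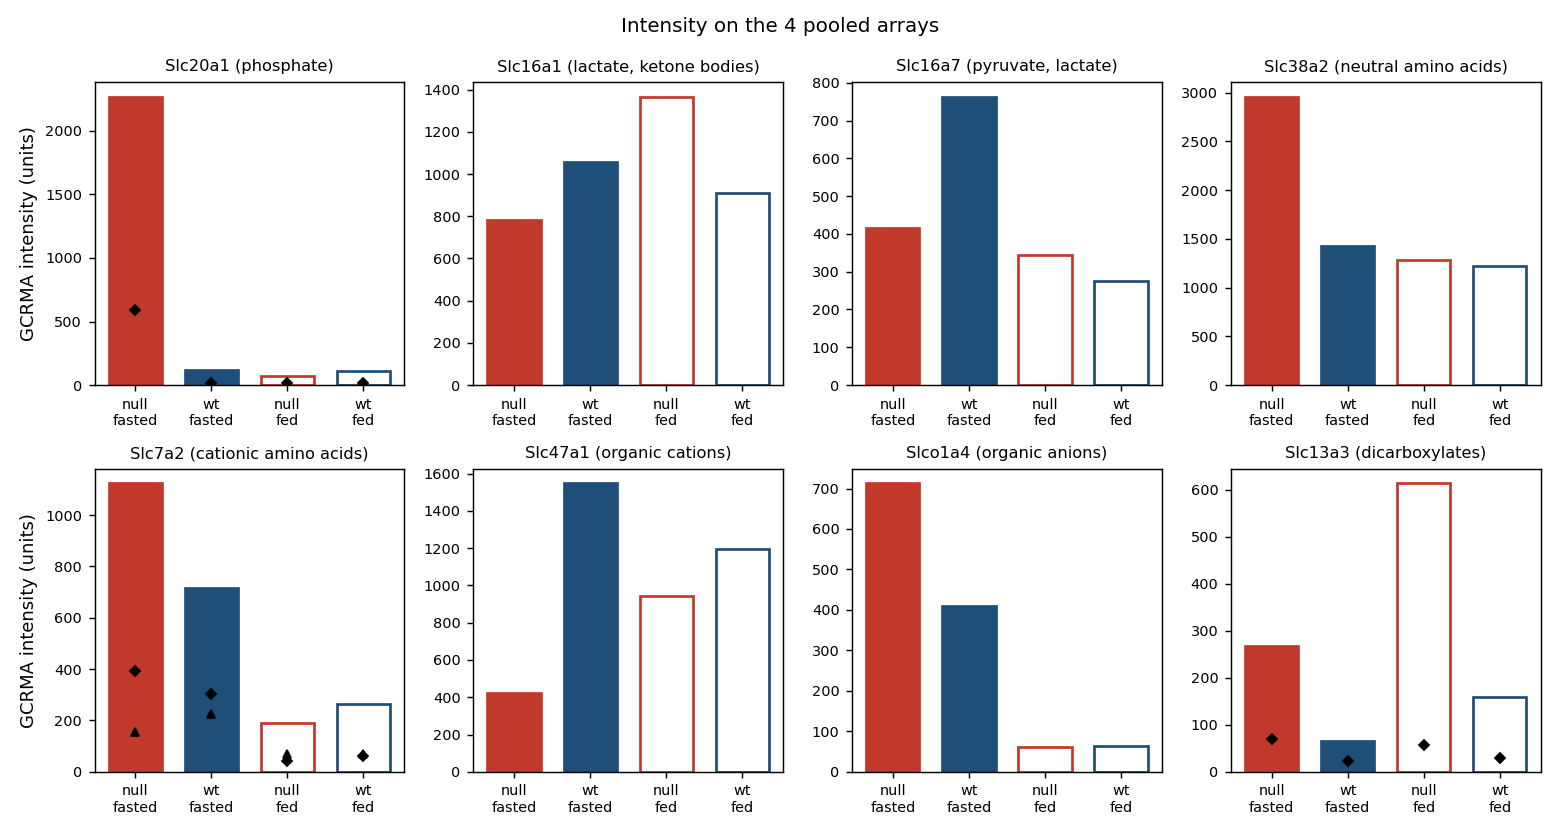
GCRMA intensity (units, vertical axis from 0) of 8 transporter genes on the 4 pooled arrays, null left of wild-type and fasted left of fed, with bars for the brightest probe set and black symbols for dimmer probe sets of the gene. Slc20a1 stands at 2269 units in fasted null liver and at 116 units or less in the other pools, Slc16a7 is highest in fasted wild-type liver at 763 units, and Slc13a3 is higher in null than in wild-type liver in each feeding state.

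Amino acid transporters had median fasting differences above 0 in both genotypes. Of the 10 genes, 4 were higher and 0 lower in fasted than in fed null liver, with a median log2 difference of 0.57, and 2 were higher and 1 lower in fasted than in fed wild-type liver, with a median of 0.30. Of all probe sets 17.2% were higher and 23.5% lower with fasting in null liver and 12.9% and 12% in wild-type liver, so that the wild-type counts were near the background. Between the fasted pools 3 were higher in null liver and 0 lower (median 0.18), against 11.7% and 18.9% of all probe sets. The 3 include Slc7a2 through its brightest probe set alone (log2 0.65), as its other probe sets gave 0.38 and -0.55.

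Slc38a2 encodes a sodium-coupled importer of alanine, serine and other small neutral amino acids, whose expression is known to be induced by amino acid shortage. It read 2958 units in fasted null, 1426 units in fasted wild-type, 1286 units in fed null and 1224 units in fed wild-type liver. The fasted null pool was 2.07-fold above fasted wild-type and 2.30-fold above fed null liver, and the other 3 pools were within 1.17-fold of each other. Slc7a2 encodes a carrier of arginine, lysine and ornithine, with a liver form of low affinity. Its brightest probe set read 1123 units in fasted null, 714 units in fasted wild-type, 191 units in fed null and 266 units in fed wild-type liver. Both fasted pools were above both fed pools, by 5.89-fold in null and 2.69-fold in wild-type liver. The 2 dimmer probe sets gave 9.38-fold and 2.28-fold in null and 5.06-fold and 3.22-fold in wild-type liver. The first of these read 42.0 units in fed null and 59.9 units in fed wild-type liver. It passed the level of 64 units through the fasted arrays only, so its folds are no separate support. In the comparison of the fasted genotypes the probe sets disagreed, with log2 differences of 0.65, 0.38 and -0.55, and their mean of 0.16 was below the threshold. Which of them reads which splice form was not determined here.

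The promoter window of Slc38a2 is on the minus strand and holds 1 match to TGACG, in capitals. Within its 300 bases it holds no copy of the composite element TGATGNAA through which ATF4 acts on genes of amino acid shortage. The rest of the gene was not searched, so the window cannot say whether Slc38a2 has this element elsewhere. This element was in 1 of the 58 member windows (that of Slco2a1) and in 3.97% of all windows.
Slc38a2, chr15:96699679-96699978: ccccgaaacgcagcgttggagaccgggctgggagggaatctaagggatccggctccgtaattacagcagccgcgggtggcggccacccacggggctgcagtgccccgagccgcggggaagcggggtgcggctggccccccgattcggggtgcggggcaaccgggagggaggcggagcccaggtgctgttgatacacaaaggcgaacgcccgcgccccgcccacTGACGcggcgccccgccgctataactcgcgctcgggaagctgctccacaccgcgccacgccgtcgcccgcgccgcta

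The heavy chains of the heterodimeric transporters differed from each other. Slc3a2, which encodes the chain that carries several light chains to the plasma membrane, read 161 units in fasted null, 94.1 units in fasted wild-type, 109 units in fed null and 119 units in fed wild-type liver, and was 1.71-fold higher in the fasted null than in the fasted wild-type pool. Slc3a1, the chain of the cystine carrier, read 28.1 units in fasted null, 24.1 units in fasted wild-type, 37.7 units in fed null and 71.7 units in fed wild-type liver, and was 2.97-fold lower in fasted than in fed wild-type liver and 1.90-fold lower in fed null than in fed wild-type liver, at values that reached 64 units on the fed wild-type array only.

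The other amino acid carriers had smaller differences. Slc38a3, a sodium and proton coupled glutamine carrier, read 1944 units in fasted null, 1759 units in fasted wild-type, 1882 units in fed null and 1985 units in fed wild-type liver. The 4 pools were within 1.5-fold of each other. The brighter probe set of Slc38a4, a neutral amino acid carrier that is expressed mainly in liver, read 6383 units in fasted null, 6379 units in fasted wild-type, 4114 units in fed null and 4883 units in fed wild-type liver, which was 1.55-fold higher in fasted than in fed null liver, while its other probe set and quantile normalization put this difference under the threshold. Slc15a4, a lysosomal carrier of histidine and peptides, read 263 units in fasted null, 297 units in fasted wild-type, 142 units in fed null and 204 units in fed wild-type liver, and was 1.84-fold higher in fasted than in fed null liver. Slc38a10, a little studied relative, read 323 units in fasted null, 273 units in fasted wild-type, 218 units in fed null and 175 units in fed wild-type liver in its brightest probe set and was 1.56-fold higher in fasted than in fed wild-type liver, a difference that its other 2 probe sets (log2 0.51 and -0.09) did not reach. The betaine carrier gene Slc6a12 ranged between 111 and 158 units, and Slc6a13, which carries taurine and gamma-aminobutyric acid, between 306 and 413 units, with no comparison past the threshold for either.

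Among genes known to respond to amino acid shortage through ATF4, 8 of 20 reached 64 units on some array. In the fasted state 2 of these were higher in null than in wild-type liver and 1 (Shmt2) was lower, the median log2 difference being 0.17, and in the fed state 3 were higher and 0 lower. Of all probe sets 11.7% were higher and 18.9% lower in the fasted and 3.18% and 3.1% in the fed state, so that the fasted counts were near the background. Asns, which encodes asparagine synthetase, read 315 units in fasted null, 124 units in fasted wild-type, 227 units in fed null and 84.2 units in fed wild-type liver, so that it was higher in null liver in both feeding states, 2.54-fold when fasted and 2.70-fold when fed. Slc38a2 and Slc3a2 were past the threshold in the fasted comparison alone. Shmt2, a mitochondrial enzyme of serine and glycine exchange, was 2.29-fold lower in fasted null liver.

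Organic ion transporters went in both directions. Of 11 genes, 4 were higher and 4 lower in the fasted null than in the fasted wild-type pool, and with fasting 1 was higher and 6 lower in null liver and 1 was higher and 5 lower in wild-type liver. Of all probe sets 11.7% were higher and 18.9% lower between the fasted genotypes, 17.2% and 23.5% with fasting in null liver and 12.9% and 12% with fasting in wild-type liver. The 6 lower genes in null liver include Slc17a2 at a log2 difference of -0.59, which was under the threshold after quantile normalization (-0.51), centring (-0.46) or lowess (-0.57). The 4 genes higher in the fasted null than in the fasted wild-type pool include Slc22a7, which passed the level through the null arrays only. The median fasting difference was -0.59 in null and -0.22 in wild-type liver.

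The gene that was higher with fasting in each genotype was Slco1a4, which encodes a sinusoidal importer of organic anions, bile salts and cardiac glycosides. It read 712 units in fasted null, 409.6 units in fasted wild-type, 60.8 units in fed null and 64.7 units in fed wild-type liver. Both fasted pools were above both fed pools, by 11.7-fold in null and 6.33-fold in wild-type liver. The fasted null pool was 1.74-fold above the fasted wild-type pool. The neighbouring gene Slco1a1, an importer of the same family, read 2484 units in fasted null, 1394 units in fasted wild-type, 2517 units in fed null and 2815 units in fed wild-type liver in its brighter probe set. Here the fasted wild-type pool was the lowest, 2.02-fold below fed wild-type liver, whereas in null liver the fasted and fed values differed by 1.01-fold, and the fasted null pool was 1.78-fold above the fasted wild-type pool. Its dimmer probe set read 784 units in fasted null, 614 units in fasted wild-type, 1295 units in fed null and 1157 units in fed wild-type liver and was 1.65-fold lower in fasted than in fed null liver, so the probe sets differ on the null response. Genes of this cluster resemble each other in sequence, which makes the split between them uncertain.

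Slco1b2, the liver-specific importer of bilirubin, bile salts and statins, was lower in fasted null liver in all 3 probe sets. The brightest read 4518 units in fasted null, 6626 units in fasted wild-type, 7262 units in fed null and 7699 units in fed wild-type liver, and log2 differences between the fasted genotypes were -0.55, -0.56 and -1.06, of which the last, from a probe set with an ambiguous suffix, passed the threshold. In null liver the brightest probe set was 1.61-fold lower with fasting (log2 -0.68), against a log2 difference of -0.22 in wild-type liver. The other probe sets gave -1.25 and -0.57 in null liver, the last under the threshold. Centring, which raised each log2 difference of this comparison by 0.13, puts the brightest under the threshold too.

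Slc47a1, which encodes a proton-coupled exporter of organic cations at the bile canaliculus, showed the largest deficit of the set in the fasted comparison of genotypes. It read 423 units in fasted null, 1547 units in fasted wild-type, 944 units in fed null and 1196 units in fed wild-type liver. The fasted null pool was the lowest and the fasted wild-type pool the highest. It was 3.66-fold lower in the fasted null than in the fasted wild-type pool and 2.23-fold lower in fasted than in fed null liver, with a log2 difference of 0.37 for fasting in wild-type liver. Slc22a23, an orphan member of the organic ion family, read 78.5 units in fasted null, 184 units in fasted wild-type, 180.5 units in fed null and 189.7 units in fed wild-type liver and was 2.35-fold lower in fasted null liver, with the other 3 pools at nearly 1 level.

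Anion carriers of the Slc17a cluster were lower in fasted null liver. Slc17a3, an organic anion and urate exporter, read 104 units in fasted null, 264 units in fasted wild-type, 656 units in fed null and 835 units in fed wild-type liver. Both fasted pools were below both fed pools, by 6.33-fold in null and 3.16-fold in wild-type liver, and the fasted null pool was 2.55-fold below the fasted wild-type pool. Slc17a2 read 287 units in fasted null, 612 units in fasted wild-type, 433 units in fed null and 669.9 units in fed wild-type liver in its brighter probe set and was lower in null liver in each state, 2.14-fold when fasted and 1.55-fold when fed. Its dimmer probe set went the same way, and its fed log2 difference of -0.33 was under the threshold.

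Slc22a30, a rodent member of the organic anion family, was lower with fasting in each genotype. It read 409 units in fasted null, 354 units in fasted wild-type, 2204 units in fed null and 2502 units in fed wild-type liver, which was 5.39-fold lower with fasting in null and 7.08-fold lower in wild-type liver, with the genotypes within 1.5-fold of each other in each state. The gene lies among close relatives, and its value may include them. Slc22a7, an importer of organic anions and cyclic nucleotides, read 98.9 units in fasted null, 24.2 units in fasted wild-type, 119 units in fed null and 63.3 units in fed wild-type liver, and was 4.09-fold higher in fasted null and 1.88-fold higher in fed null than in wild-type liver at low values. It passed the level through the null arrays only and so had to be high there. With a floor at 64 units its log2 difference between the fasted genotypes was 0.63. Slc22a18, a carrier encoded in an imprinted region, read 369 units in fasted null, 117 units in fasted wild-type, 444 units in fed null and 230.0 units in fed wild-type liver in its brighter probe set and was 3.15-fold higher in fasted null and 1.93-fold higher in fed null liver. Neither log2 difference passed the threshold in the dimmer probe set of Slc22a18 (0.44 and 0.50). The prostaglandin carrier gene Slco2a1 stayed between 53.4 and 79.0 units.

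Slc13a3, a sodium-coupled importer of succinate and other dicarboxylates, was higher in null liver whether fed or fasted. The brighter probe set read 268 units in fasted null, 64.7 units in fasted wild-type, 614 units in fed null and 159.8 units in fed wild-type liver. The null pool was above the wild-type pool by 4.15-fold when fasted and by 3.84-fold when fed, and it was 2.29-fold lower with fasting in null and 2.47-fold lower in wild-type liver. This probe set has an ambiguous suffix. The second probe set, which entered the set through the fasted null array alone, read 69.6 units in fasted null, 23.7 units in fasted wild-type, 57.7 units in fed null and 30.1 units in fed wild-type liver. Its null to wild-type folds of 2.94-fold when fasted and 1.92-fold when fed are therefore no separate support, and its log2 difference for fasting in null liver was 0.27, of opposite sign.

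**Figure D4:**
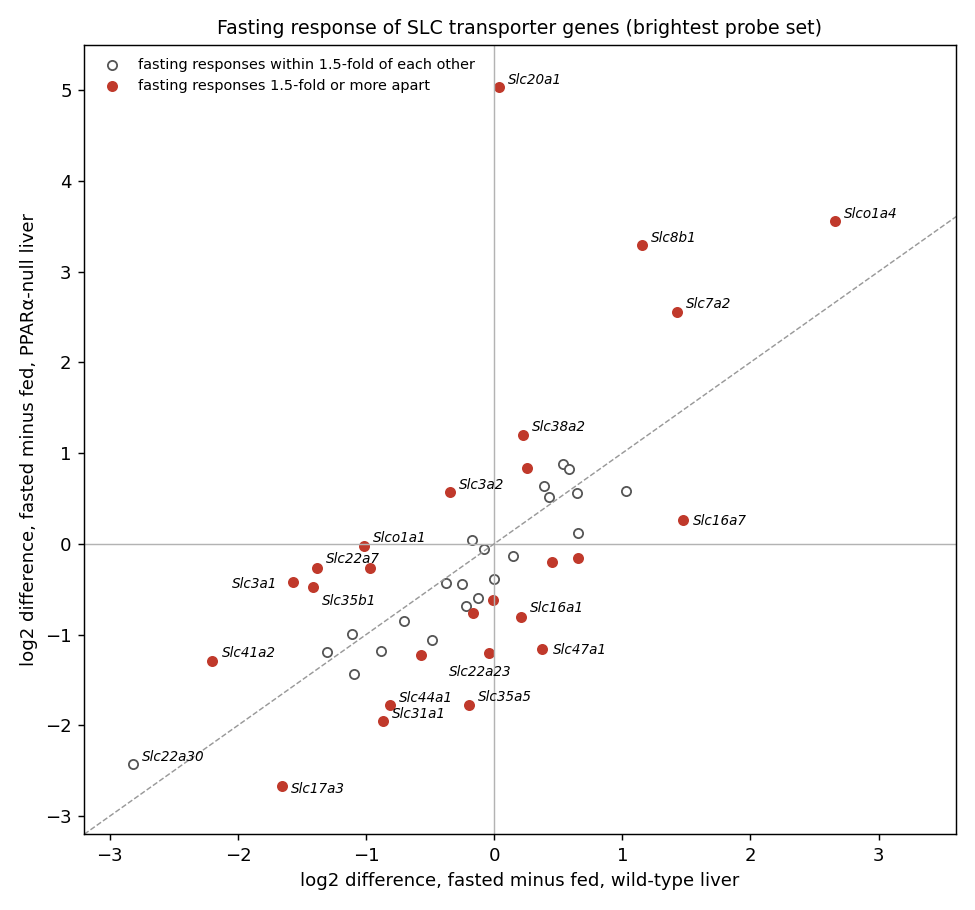
Log2 difference of fasted minus fed liver for the 48 genes in wild-type mice (horizontal axis) and in PPARα-null mice (vertical axis), brightest probe set, 1 array per group. Filled points are genes whose fasting responses were 1.5-fold or more apart, and the dashed line marks equal responses. Slc20a1 lies at 0.04 and 5.03, Slc16a7 at 1.48 and 0.27 and Slc22a30 close to the line at -2.82 and -2.43.

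Carriers that serve the Golgi apparatus and the endoplasmic reticulum, with the nucleoside carrier, went in both directions. Of 7 genes 3 were lower and 1 was higher than in fasted wild-type liver, with a median log2 difference of -0.53, and Slc35a2, Slc35b3 and Slc35d1 did not pass. Of all probe sets 18.9% were lower and 11.7% higher in this comparison. In the fed state 0 genes were higher and 0 lower, where 3.18% and 3.1% of all probe sets would give less than 1 gene of 7. Slc35a5, a relative of the nucleotide sugar carriers of the Golgi apparatus, read 41.1 units in fasted null, 137 units in fasted wild-type, 140.4 units in fed null and 157 units in fed wild-type liver. It was 3.34-fold lower in the fasted null than in the fasted wild-type pool, and the other 3 pools lay close together. Its probe set has an ambiguous suffix. Slc29a1, the equilibrative nucleoside carrier, read 524 units in fasted null, 875 units in fasted wild-type, 604 units in fed null and 639 units in fed wild-type liver and was 1.67-fold lower in fasted null liver. Slc35d1, which carries UDP-glucuronic acid into the endoplasmic reticulum, read 690.2 units in fasted null, 996 units in fasted wild-type, 1167 units in fed null and 1114 units in fed wild-type liver and was 1.69-fold lower in fasted than in fed null liver. Slc35f5, an orphan carrier, read 57.1 units in fasted null, 89.0 units in fasted wild-type, 133 units in fed null and 132 units in fed wild-type liver and was 1.56-fold lower in the fasted null than in the fasted wild-type pool, a difference that was under the threshold after quantile normalization or centring. Slc35b1, a carrier of the endoplasmic reticulum, behaved otherwise: it read 419.9 units in fasted null, 276 units in fasted wild-type, 585 units in fed null and 734 units in fed wild-type liver and was 2.66-fold lower with fasting in wild-type liver, which left the fasted null pool 1.52-fold above the fasted wild-type pool. Slc35b3, which imports the sulfate donor PAPS into the Golgi apparatus, read 72.9 units in fasted null, 49.4 units in fasted wild-type, 41.3 units in fed null and 33.0 units in fed wild-type liver, and was 1.77-fold higher in fasted than in fed null liver. It entered the set through the fasted null array alone, and with a floor at 64 units this log2 difference was 0.19. The UDP-galactose carrier gene Slc35a2 stayed between 125 and 163 units.

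Vitamin and choline carriers were lower in fasted than in fed null liver, 4 of 4 genes, with a median of -1.01, and 3 of 4 in wild-type liver, with a median of -0.76. Of all probe sets 23.5% were lower with fasting in null and 12% in wild-type liver. The count in null liver includes Slc19a2 at a log2 difference of -0.62, which was under the threshold after quantile normalization (-0.57) and with centring (-0.49). Slc44a1, a choline carrier, read 54.4 units in fasted null, 81.7 units in fasted wild-type, 187 units in fed null and 144 units in fed wild-type liver and was 3.43-fold lower with fasting in null and 1.76-fold lower in wild-type liver. Slc19a2, the thiamine carrier, read 197 units in fasted null, 352 units in fasted wild-type, 303 units in fed null and 355 units in fed wild-type liver in its brighter probe set. It was 1.79-fold lower in the fasted null than in the fasted wild-type pool in that probe set and 2.47-fold lower in the other, with wild-type values almost equal in the fed and fasted states. Slc23a1, the ascorbate carrier, read 293 units in fasted null, 321 units in fasted wild-type, 528 units in fed null and 523 units in fed wild-type liver, and was 1.80-fold lower with fasting in null and 1.63-fold lower in wild-type liver, with no difference between genotypes above 1.09-fold. Slc46a1, the proton-coupled folate carrier, read 48.7 units in fasted null, 67.8 units in fasted wild-type, 110.1 units in fed null and 125 units in fed wild-type liver and was 2.26-fold lower with fasting in null and 1.85-fold lower in wild-type liver, and its dimmer probe set gave 1.70-fold and 1.62-fold. That dimmer probe set passed the level of 64 units through the fed arrays only, so its folds are no separate support.

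Metal carriers included the copper importer gene Slc31a1, which read 105 units in fasted null, 183 units in fasted wild-type, 405 units in fed null and 334 units in fed wild-type liver. It was 3.87-fold lower with fasting in null and 1.83-fold lower in wild-type liver, and the fasted null pool was 1.75-fold below the fasted wild-type pool. The dimmer probe set gave 2.92-fold for null liver and a log2 difference of -0.38 for wild-type liver. Slc40a1, which encodes the iron exporter ferroportin of hepatocytes and Kupffer cells, read 762 units in fasted null, 1023 units in fasted wild-type, 1033 units in fed null and 1219 units in fed wild-type liver in its brighter probe set, with no comparison past the threshold, whereas the dimmer probe set read 325 units in fasted null, 565 units in fasted wild-type, 502 units in fed null and 550.1 units in fed wild-type liver and was 1.74-fold lower in the fasted null than in the fasted wild-type pool. The Kupffer cell list was higher in the same comparison, as given above. Slc41a2, a magnesium carrier, read 34.0 units in fasted null, 13.6 units in fasted wild-type, 83.0 units in fed null and 62.2 units in fed wild-type liver, so that in wild-type liver it was at least 3.89-fold lower with fasting, at values that reached 64 units in the fed null pool only.

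A calcium and a bicarbonate carrier had higher values in the fasted than in the fed pool of each genotype. Slc8b1, the sodium and calcium exchanger of the inner mitochondrial membrane, read 259 units in fasted null, 102 units in fasted wild-type, 26.5 units in fed null and 45.8 units in fed wild-type liver. It was 9.76-fold higher with fasting in null and 2.22-fold higher in wild-type liver. Its only probe set passed the level of 64 units through the fasted arrays alone and so had to be high there. The fasted null pool was 2.55-fold above fasted wild-type liver, while the fed null pool was 1.72-fold below fed wild-type liver, where the values were under 64 units. Slc4a4, the sodium bicarbonate cotransporter, read 216 units in fasted null, 299 units in fasted wild-type, 145 units in fed null and 147 units in fed wild-type liver in its brightest probe set. It was 2.04-fold higher with fasting in wild-type liver in that probe set and 3.12-fold higher in the second. The dimmest, at 2.43-fold, reached 64 units on the fasted wild-type array alone and so had to be high there. In null liver the 3 probe sets gave 1.49-fold, 1.95-fold and 1.89-fold, of which the brightest just missed the threshold. In the fed state the genotypes were within 1.5-fold in all 3. Between the fasted genotypes all 3 were lower in null liver, with log2 differences of -0.47, -0.60 and -0.58 in the same order. Of these only the second passed the threshold, at 1.52-fold.

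Of the 6 other members, 3 were lower and 1 was higher with fasting in null liver, against 23.5% and 17.2% of all probe sets. Slc33a1, which carries acetyl-CoA into the endoplasmic reticulum, read 379 units in fasted null, 446 units in fasted wild-type, 1027 units in fed null and 952 units in fed wild-type liver and was 2.71-fold lower with fasting in null and 2.13-fold lower in wild-type liver. Slc66a2, an orphan carrier, read 408 units in fasted null, 625 units in fasted wild-type, 848 units in fed null and 876 units in fed wild-type liver and was 2.08-fold lower with fasting in null liver. Slc66a1, which exports cationic amino acids from lysosomes, read 68.8 units in fasted null, 56.1 units in fasted wild-type, 38.4 units in fed null and 47.1 units in fed wild-type liver, all low, and was 1.79-fold higher in fasted than in fed null liver. It too reached 64 units on the fasted null array alone, and with a floor at 64 units the log2 difference was 0.10. Slc9a3r1 bears a transporter symbol but encodes a scaffold protein that anchors carriers at the apical membrane. It read 253 units in fasted null, 229 units in fasted wild-type, 504 units in fed null and 494 units in fed wild-type liver in its brightest probe set, with fasted pools 1.99-fold lower in null and 2.16-fold lower in wild-type liver. Its dimmer probe sets gave 1.56-fold and 1.32-fold in null and 2.18-fold and 1.99-fold in wild-type liver. The 1.32-fold, under the threshold, came from the probe set without an ambiguous suffix. Slc45a3 ranged between 64.5 and 102 units and was 1.58-fold higher with fasting in wild-type liver, and the kidney glucose carrier gene Slc5a2 stayed between 64.3 and 75.5 units.

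Genes that work with these carriers were also examined. Of 7 such genes at 64 units or more, 2 were higher in the fasted null than in the fasted wild-type pool and 0 lower, with a median log2 difference of 0.29, against 11.7% and 18.9% of all probe sets. Sgk1, a kinase that raises the activity of several sodium-coupled carriers, read 1347 units in fasted null, 238 units in fasted wild-type, 225 units in fed null and 296 units in fed wild-type liver. As for Slc20a1, a single pool was high, 5.65-fold above fasted wild-type and 5.98-fold above fed null liver. Nedd4l, a ubiquitin ligase that removes channels and carriers from the membrane, read 403 units in fasted null, 251 units in fasted wild-type, 187 units in fed null and 139 units in fed wild-type liver and was 1.60-fold higher in fasted null liver. Atp1b1, the beta subunit of the sodium pump, read 842 units in fasted null, 686 units in fasted wild-type, 468 units in fed null and 483 units in fed wild-type liver and was 1.80-fold higher with fasting in null liver. Pdzk1, a scaffold of sinusoidal anion carriers, read 31.0 units in fasted null, 45.2 units in fasted wild-type, 74.0 units in fed null and 74.6 units in fed wild-type liver and was 2.38-fold lower with fasting in null and 1.65-fold lower in wild-type liver. Xpr1, the phosphate exporter gene, stayed between 46.0 and 61.3 units, below the level used for the transporters.

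Agreement of probe sets of the same gene gave the only measure of scatter. It comes from the same arrays and holds no variation between mice, pools or hybridizations. In the 16 genes with 2 or 3 member probe sets, the log2 differences of these probe sets scattered with an SD of 0.37 for the fasted comparison of genotypes, 0.24 for the fed one, 0.30 for fasting in wild-type and 0.46 for fasting in null liver. A single 1.5-fold difference, 0.585 on the log2 scale, is less than 2 of these SDs in each comparison except the fed one. The error of a difference between pools is not measured by these SDs and stays unknown, also for the fed comparison. In 0 of the 16 genes did probe sets pass the threshold in opposite directions in any of the 4 comparisons. Of the 69 probe sets, 51 were at 64 units or more on all 4 arrays and 7 on 1 array only, 4 of these through the fasted null array.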

How the data were processed

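Arrays were read as intensity values, deposited by the authors without log transformation. They were made with GCRMA, for which the submitters' processing notes give version 2.20 and which corrects background with probe sequence, normalizes quantiles and summarizes probe sets. The set of arrays that entered each normalization was not found in those sources. Scanner files were not used here. Per the labels, the RNA of a group was pooled, and the sources differ on the amount labelled and the number of mice per pool.

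Values were converted to log2. Each comparison is a difference of 2 arrays, counted at 1.5-fold with no filter beyond 64 units on 1 array and no test, since a group holds 1 array. The number of arrays limits the precision. For folds of named genes values under 16 units were set to 16, and a fold with a value at that floor is written as at least. A gene is represented by the probe set whose log2 values have the highest mean. Suffixes _a, _s and _x mark probe sets that may match several transcripts (24 of 69). Symbols came from the platform annotation (20393 probe sets with 1 symbol, 691 with several, 1606 with none), and all 69 members matched a RefSeq gene identifier, with 0 symbols changed. Of the probe sets with several genes, 3 include an SLC symbol and were not used.

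Members, substrate lists, lists of accessory, amino acid shortage and cell type genes were chosen with earlier results of these data known. Named were the phosphate and monocarboxylate members, the 8 largest differences of each comparison in each direction past 1.5-fold with log2 of 7 or more on the brighter array, and up to 4 members of every other list by range over the arrays. This named 38 genes, and the other 10 are given for completeness. Alternatives were a 2-fold threshold, other levels and floors, quantile normalization, centring on bright probe sets, lowess (fraction 0.3), omission of ambiguous suffixes, and counting by gene. The counting code was run on simulated arrays with large changes put into bright probe sets and little noise. That run checks the code only and says nothing on the error of a difference between pools. Promoter windows came from RefSeq (GRCm38.p6) and were searched on both strands. Python 3.11.15, numpy 2.4.6, pandas 2.3.3, statsmodels 0.14.6 and matplotlib 3.10.9 were used.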

Additional observations from a re-analysis of the deposited data

Results flagged for a closer look

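For 2 genes the difference between genotypes ran in opposite directions in the fed and the fasted state, past 1.5-fold each time. Slc20a1 had a log2 difference of 4.28 between fasted null and fasted wild-type liver and of -0.71 between fed null and fed wild-type liver. Slc8b1 had a log2 difference of 1.35 in the fasted and of -0.79 in the fed comparison. The fed differences rest on low values (69.4 units in fed null and 114 units in fed wild-type liver for Slc20a1, and 26.5 and 45.8 units for Slc8b1), and the dimmer probe set of Slc20a1 was under the threshold in the fed state. With 1 array per group the difference between the states was not tested.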

How the results depend on the processing

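No paired analysis was possible because each group holds 1 array, and for the same reason no array could be left out. Of the 160 counts and medians recomputed, 140 stayed within 1.5 times the reported count or within the scatter of probe sets of a gene, and 20 counts were smaller. With a 2-fold threshold, fasted null against fasted wild-type liver had 9 transporter probe sets higher and 8 lower, the fed comparison 1 and 0, fasting in wild-type liver 11 lower, fasting in null liver 8 higher and 16 lower, and the difference of fasting responses 6 higher and 10 lower. Without ambiguous suffixes (45 probe sets) the fed comparison had 2 higher, wild-type fasting 7 higher and 13 lower and null fasting 19 lower. With log2 of 7 on 1 array as the level, 2 were higher in the fed comparison. Counting genes by their mean gave 2 lower in the fed comparison, 7 higher with wild-type fasting, 9 higher and 19 lower with null fasting and 11 higher in the difference of fasting responses, and by the brightest probe set 9 higher with null fasting. By construction the threshold was stricter or fewer probe sets or genes entered these counts. Among 1300 values of the 38 named genes, 47 were no longer and 23 were newly past the 1.5-fold threshold. Sign changes of differences below the threshold were not counted, such as Slc23a1 between the fasted genotypes (log2 -0.13 as deposited, 0.02 with centring). Of the values past the threshold as deposited, 3 changed sign. The log2 difference for fasting in null liver was 0.27 for Slc13a3 in its probe set without an ambiguous suffix, and with a floor at 64 units the difference of fasting responses was -0.27 for Slc22a7 and -0.38 for Slc41a2, with 2 of the 4 values of Slc22a7 and 3 of those of Slc41a2 then at the floor. The cause was not tested for Slc13a3. Low signal over background limits the 7 probe sets that reached 64 units on 1 array only.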
